A study of Mus musculus with 16 samples.

Results

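Cytosolic ribosomal proteins are the proteins that, with ribosomal RNA, build the 40S (Rps genes) and 60S (Rpl genes) subunits of the ribosome. Genes were taken as members by symbol: Rpl or Rps followed by a number, Rplp0 to Rplp2, and Rpsa, without the Rps6k kinases, Rps19bp1 and pseudogenes with -ps in the symbol. Of 94 symbols in the RefSeq gene table that met this rule, 88 had a probe on the array (151 probes), and 85 of these 88 genes passed the filter on dim and marked spots, among 16737 named genes that passed it. RNA came from the cerebellum of mice of the strain B6;129S4-Atmtm1Bal/J, labelled male and 3.5 months of age, with 4 animals in each of 4 groups. WT veh and WT NR were wild-type littermates, and Atm-/- veh and Atm-/- NR carried the targeted Atm allele on both copies in every cell, so the model is not limited to the cerebellum. From 6 weeks of age the NR groups were given nicotinamide riboside, a precursor of NAD, at 12 mM (3.5 mg/ml) in what they drank for 2 months, and the veh groups drank water alone. The comparisons ask whether ribosomal protein transcripts differ with loss of Atm, the kinase that answers DNA double-strand breaks, and with NR in either genotype.

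Ribosomal proteins are made in step with each other, because a subunit needs 1 copy of most of them. Their mRNAs are among the most abundant in a cell, neurons included. Most begin with a run of pyrimidines at the cap, the TOP sequence, through which mTORC1 and the protein LARP1 adjust their translation. Free Rpl5 and Rpl11, bound to 5S rRNA, can hold Mdm2 and so stabilise p53. An array measures the mRNA only, not translation or the protein.

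The start sites of the genes that the results below turn on are shown for this reason, in RefSeq's promoter table of build GRCm38.p6, as 15 bases before and 15 bases from the annotated start. Capitals mark a TOP-like run, searched on the gene's strand as C followed by 4 letters that are each C or T, starting within 5 bases of the start. Rps6, the S6 kinase substrate of the small subunit, is added as a member with the run that is not among them.
Rpl22l1, chr3:28805493-28805522, plus strand: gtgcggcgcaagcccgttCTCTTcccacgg
Rpl7a, chr2:26910792-26910821, plus strand: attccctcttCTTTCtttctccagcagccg
Rpl39, chrX:37085208-37085237, minus strand: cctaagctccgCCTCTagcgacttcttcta
Rps15a, chr7:118116133-118116162, minus strand: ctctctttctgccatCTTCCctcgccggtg
Rps6, chr4:86857353-86857382, minus strand: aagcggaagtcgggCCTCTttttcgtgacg
Rpl36al, chr12:69184053-69184082, minus strand: cattcccgtcgctcaggttcagttccgact
Rpsa, chr9:120127751-120127780, plus strand: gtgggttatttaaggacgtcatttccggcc
Rpl5, chr5:107900513-107900542, plus strand: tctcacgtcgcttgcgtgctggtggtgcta
Rpl11, chr4:136053379-136053408, minus strand: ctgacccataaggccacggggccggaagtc
Rps15, chr10:80292416-80292445, plus strand: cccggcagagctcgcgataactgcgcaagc
The table held a start for 64 of the 85 genes, and 30 of these (46.9%) had such a run at one of their starts, against 5718 of 27025 genes (21.2%) over the whole table. Among the 9 genes called below that have an entry, 4 had it. An annotated start may lie some bases from the one a cell uses, so the letters describe these windows only.

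The 2 slides of the series held 1 genotype each, so slide and genotype cannot be told apart, and on each slide the veh arrays filled row 1 and the NR arrays row 2, so row and treatment cannot be told apart either. Against the male label, 4 of the 16 arrays gave signal for Xist and none for Y-linked genes, namely Atm-/- NR 4, Atm-/- veh 3, WT NR 4 and WT NR 1, so results are given with and without them. Of 2 probes for Atm, one read 8.84 ± 0.16 (SD, n = 4; log2) for WT veh, 8.59 ± 0.07 for WT NR, 7.97 ± 0.08 for Atm-/- veh and 7.82 ± 0.07 for Atm-/- NR, without overlap between genotypes, and the other ran from 8.97 to 9.27 in WT veh and from 8.72 to 8.82 in Atm-/- veh but overlapped under NR. All 10 Purkinje cell and all 10 granule cell markers in the lists used were well above background on all 16 arrays. Between 34945 and 42559 probes per array were well above background, with every Atm-/- NR array (34945 to 37817) below every Atm-/- veh array (39134 to 41905). The part of these differences in the results below was not tested. Nothing but the animal number separates replicates in the labels, and in tissue RNA fewer cells of a type cannot be told apart from less RNA per cell.

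Ribosomal protein probes were bright and, after quantile normalization, steady. Of the 85 genes, represented by their brightest probe, 84 were well above background on all 16 arrays, and 72 lay within the brightest 5% of the named genes, which is a position on the scanner's scale and not an amount of mRNA. Their median SD between arrays of 1 group was 0.067 on the log2 scale, against 0.182 over all named genes and 0.0905 over 78 mitochondrial ribosomal proteins. Genes of like brightness were not compared. The SD of the member mean between arrays of a group ran from 0.016 to 0.047 by group. With each array scaled to its 75th percentile instead, it ran from 0.043 to 0.057. Within groups the members moved together only in part: over the 3570 pairs of members, the correlation of deviations from the group means over 16 arrays averaged 0.144, and it averaged 0.0106 over all pairs of named genes. It averaged 0.199 over mitochondrial ribosomal proteins and 0.0835 over ribosome biogenesis genes, so it is not particular to the members. These points share the array and its normalization, so the values are a description. The dim exceptions were Rpl37 and Rpl3l. The single probe of Rpl37 lay at the 11.1 percentile of signal, with a mean of 6.22, while that of its near-identical copy Rpl37rt averaged 17.78. These probes may share target, which was not tested. Rpl3l, the paralog of Rpl3 known from muscle, was well above background on 7 arrays. No values are given for Rpl10l, a testis paralog of Rpl10, whose probe was above background on 0 arrays, for Rpl39l, above background on 6, or for Rpl13a, whose single spot carried an outlier mark on 1 array.

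Loss of Atm without NR moved no ribosomal protein past the threshold. None of the 85 genes was called between Atm-/- veh and WT veh at a Benjamini-Hochberg adjusted p under 0.05 (limma, all 37253 probes), where 9 of 16737 named genes (0.0538%) were. At an unadjusted p under 0.05 there were 4 members, Rps20, Rps26, Rpl35 and Rpl39, all with lower means in Atm-/- veh, which is 4.71% of members against 16.8% of all named genes. The median member difference was -0.043 on the log2 scale, beside -0.028 over all named genes. Of the members 63 of 85 differed by less than 0, as did 9275 of 16737 named genes. The member median was negative under all scalings tried. It was -0.05 on the 12 arrays with Y-linked signal, where 0 members were called. The groups did not overlap for 9 members (10.6%, against 8.74% of named genes), with 8 below WT veh and 1, Rplp1, above it. Of all named genes 4.84% lay wholly below WT veh and 3.9% wholly above it. Rps26, a protein at the mRNA exit of the small subunit, read 15.72, 15.89, 15.76 and 15.77 in WT veh and 15.65, 15.69, 15.56 and 15.54 in Atm-/- veh. The groups lay apart, and the difference of -0.18 (SE 0.072, limma adjusted p = 0.295) was not called.

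**Figure D1:**
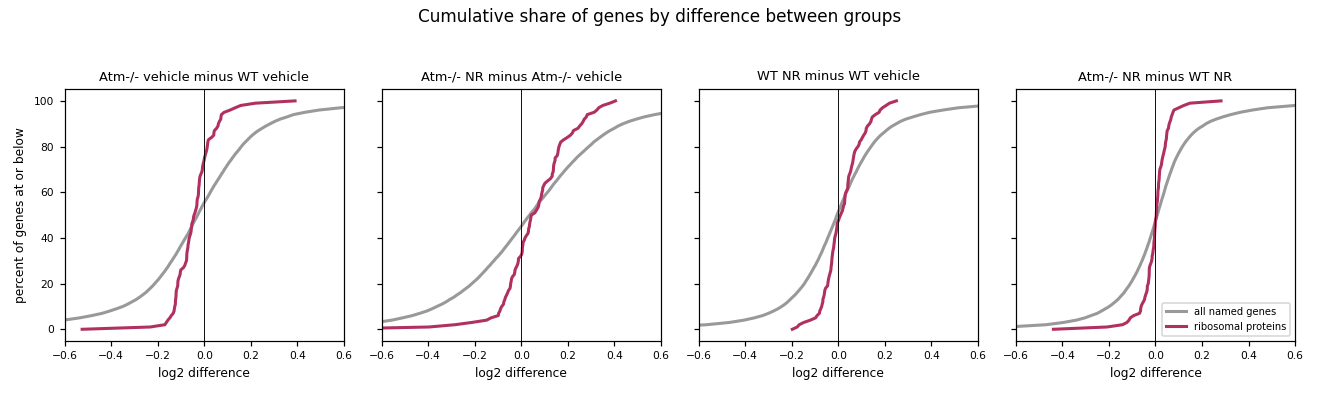
Cumulative percent of genes (y axis) at or below a given log2 difference (x axis, -0.6 to 0.6) in each of 4 comparisons, for the 85 ribosomal protein genes (red) and all 16737 named genes (grey). The red curves are steeper in all panels, and in Atm-/- NR minus Atm-/- veh the red median of 0.043 lies next to the grey one of 0.036.

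NR in Atm-/- mice was the comparison in which ribosomal proteins were called. Between Atm-/- NR and Atm-/- veh 9 members rose (10.6%, against 6.67% of all named genes) and 2 fell (2.35%, against 4.8%), together 11 of 85 (12.9%) beside 1920 of 16737 named genes (11.5%). The share called was thus close to that of all genes. The rises were Rpl22l1, Rpl7a, Rpl36al, Rpl39, Rpsa, Rps15a, Rps20, Rpl5 and Rpl11, by 1.17-fold to 1.30-fold, and one of the falls was Rps15, by 1.24-fold. At an unadjusted p under 0.05 there were 21 members (24.7%, against 30.5%), while the groups did not overlap for 32 (37.6%, against 26.3%). Of the 85 members 27 lay wholly above Atm-/- veh, as did 16% of named genes. Wholly below lay 5 members and 10.3% of named genes. The median member difference was 0.043 (all named genes 0.036), with 57 of 85 above 0, beside 9195 of 16737 named genes.

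Rpl22l1 had the largest difference of the 11. It is the paralog that can take the place of Rpl22, an RNA-binding protein that is not needed for the ribosome to work. Its log2 signal was 15.63, 15.79, 15.62 and 15.60 in Atm-/- veh and 15.98, 16.03, 16.08 and 16.06 in Atm-/- NR, beside 15.71, 15.81, 15.85 and 15.83 in WT veh and 15.85, 16.14, 16.06 and 15.95 in WT NR. All Atm-/- NR arrays stood above all Atm-/- veh arrays. In WT mice the groups did not overlap either, though they all but touched at 15.85. The difference in Atm-/- was 0.38 (SE 0.075, limma adjusted p = 0.013). Rpl22 itself differed by 0.09 (95% interval -0.07 to 0.25, limma adjusted p = 0.454).

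Rpl7a, a 60S subunit protein, read 15.99, 16.10, 16.003 and 15.84 in Atm-/- veh and 16.24, 16.33, 16.34 and 16.38 in Atm-/- NR. The groups did not overlap, and the difference was 0.34 (SE 0.082, limma adjusted p = 0.0241). Rpl36al, the autosomal paralog of the X-linked Rpl36a, read 14.78, 14.87, 14.61 and 14.65 in Atm-/- veh against 14.93, 15.10, 15.12 and 15.07 in Atm-/- NR, again apart, with a difference of 0.33 (SE 0.078, limma adjusted p = 0.0221). Its second probe was 0.20 higher (limma adjusted p = 0.0693). The 3 probes of Rpl36a were 0.14 (the brightest), 0.29 and 0.18 higher (limma adjusted p = 0.261, 0.0611 and 0.0795), and the difference between the paralogs was not tested. For Rpl39, a small protein of the exit tunnel, the brightest probe was 0.28 higher (SE 0.073, limma adjusted p = 0.0307), from 16.26, 16.38, 16.34 and 16.11 to 16.50, 16.54, 16.63 and 16.55. Of its 4 other probes, 1 differed by 0.21 and 3 by -0.07, -0.13 and -0.18, and none of the 4 was called, so the call rests on 1 probe.

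Rpl5 and Rpl11, the pair that carries 5S rRNA, both rose. Rpl5 read 14.61, 14.60, 14.48 and 14.56 in Atm-/- veh and 14.75, 14.84, 14.81 and 14.84 in Atm-/- NR, a difference of 0.25 (SE 0.070, limma adjusted p = 0.0444). Rpl11 read 17.20, 17.21, 17.29 and 17.20 in Atm-/- veh and 17.38, 17.48, 17.46 and 17.46 in Atm-/- NR, a difference of 0.22 (SE 0.057, limma adjusted p = 0.0294). Each has 1 probe, and in neither did the groups overlap. Their means in Atm-/- NR were 14.81 ± 0.04 and 17.45 ± 0.05 (SD, n = 4), beside 14.75 ± 0.12 and 17.43 ± 0.04 in WT NR, and their means in Atm-/- veh were the lowest of the 4 groups.

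Of the small subunit, Rpsa, Rps15a and Rps20 rose. Rps15a had tight groups: 15.38, 15.39, 15.34 and 15.34 in Atm-/- veh and 15.57, 15.66, 15.65 and 15.63 in Atm-/- NR, a difference of 0.26 (SE 0.055, limma adjusted p = 0.0146). A second probe of it was 0.24 higher (limma adjusted p = 0.0651) and another differed by -0.15 (limma adjusted p = 0.638). Rps20, which sits in the head of the 40S subunit and is mutated in some families with colon cancer, went from 16.91, 16.99, 17.10 and 16.89 to 17.16, 17.24, 17.30 and 17.20, a difference of 0.25 (SE 0.064, limma adjusted p = 0.0294). Rpsa, also known as the laminin receptor, was 0.27 higher (SE 0.078, limma adjusted p = 0.048), while its second probe differed by -0.11 (limma adjusted p = 0.392). Rps6, Rps19, Rps27 and Rplp0, the stalk protein often used as a reference gene, differed by 0.08, 0.00, 0.00 and 0.07 and were not called.

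**Figure D2:**
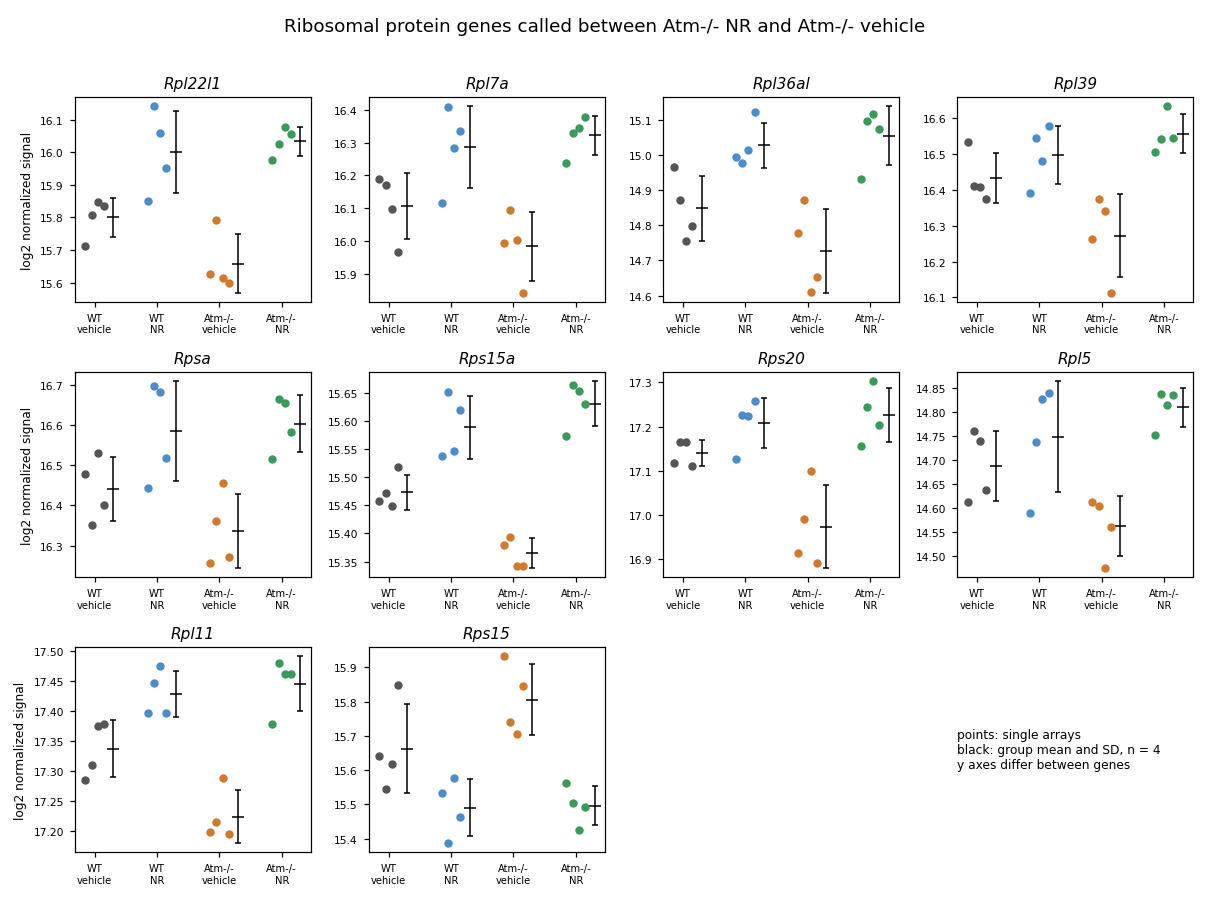
Log2 normalized signal (y axis) of 10 of the called ribosomal protein genes on each of 16 arrays, by group (x axis), with the group mean and SD (n = 4) in black. In all 10 panels the Atm-/- NR arrays lie wholly above or, for Rps15, wholly below the Atm-/- veh arrays.

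Rps15 went the other way. This gene, a protein of the 40S head, read 15.93, 15.74, 15.71 and 15.85 in Atm-/- veh and 15.56, 15.50, 15.43 and 15.49 in Atm-/- NR, and so fell by 0.31 (SE 0.080, limma adjusted p = 0.031). It has 1 kept probe, and the groups did not overlap. In WT mice it read 15.64, 15.55, 15.62 and 15.85 with veh and 15.53, 15.39, 15.58 and 15.46 with NR, which overlap. Rpl3l was well above background on 4 of 4 Atm-/- veh arrays and 0 of 4 Atm-/- NR arrays, so it passed the filter only through the group in which it was brighter, and no fold is given.

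Several members came close to the threshold between Atm-/- NR and Atm-/- veh. The brightest probe of Rps3a1, a 40S subunit protein, read 16.76, 16.83, 16.92 and 16.74 in Atm-/- veh. In Atm-/- NR it read 16.98, 17.03, 17.02 and 17.04, a difference of 0.21 (SE 0.061, limma adjusted p = 0.0505). Other probes of Rps3a1 differed by 0.082 and 0.077 (limma adjusted p = 0.37 and 0.588). Rpl37rt, whose probe may share target with Rpl37, differed by 0.28 (SE 0.083, limma adjusted p = 0.0518). For Rpl37rt and the brightest Rps3a1 probe the groups lay apart. Rpl41, the shortest ribosomal protein, differed by -0.15 (limma adjusted p = 0.196), with all Atm-/- NR arrays below all Atm-/- veh arrays. Other members known for a role of their own gave intervals that hold 0. Rpl3, which shapes the peptidyl transferase centre, differed by 0.04 (95% interval -0.09 to 0.17), and Rpl10, which joins the 60S subunit late in its assembly, by 0.01 (-0.17 to 0.18). Rps27a, made as a fusion with ubiquitin, differed by 0.16 (-0.03 to 0.34), Rps4x, the X-linked form of Rps4, by 0.08 (-0.08 to 0.24), and Rpl29 by 0.03 (-0.13 to 0.20).

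The probes of 1 gene did not always agree. Of 46 members with several kept probes, 23 had probes on both sides of 0 between Atm-/- NR and Atm-/- veh. In all, 15 of the 147 kept member probes were called, 12 higher and 3 lower, and 4 of the 15 were not the brightest probe of their gene. These were chosen here after their values were seen: a probe of Rps24 was 0.36 higher (limma adjusted p = 0.026), one of Rpl13 0.27 higher (0.0205) and a dim one of Rps27a 0.96 higher (0.0434), while one of Rpl10a differed by -0.25 (0.0337). The brightest probes of these 4 genes were not called, with differences of 0.16, -0.10, 0.16 and -0.08. Ribosomal protein genes have many processed pseudogenes, and how a probe shares signal with them is not given in the sources used here. Rps4l is itself noted as a transcribed pseudogene in the RefSeq table, and its difference of 0.04 was not called.

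The 5 arrays whose absence most reduced the count were all of the Atm-/- groups. Leaving out Atm-/- NR 3 left 1 called member, Atm-/- veh 1 left 2, and Atm-/- veh 4, Atm-/- NR 2 or Atm-/- NR 4 left 3 each. The share of all named genes called fell in the same settings, from 11.5% to 3.12%, 3.01%, 4.71%, 5.31% and 6.46%. Rpl22l1 was called with any single array left out. On the 12 arrays with Y-linked signal (3 against 3 here) no member was called, 14 had an unadjusted p under 0.05 (16.5%, against 26.1% of named genes) and 1.51% of named genes were called. The differences of the 11 genes kept their direction there, with 0.35 for Rpl22l1, 0.24 for Rpl11 and -0.34 for Rps15, and had limma adjusted p from 0.0636 to 0.15.

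The number of members that rose moved with the scaling of the arrays. Quantile normalization gives every array the same values at the bright end, where the members lie. With each array scaled to its 75th percentile instead, 19 members were higher and 2 lower (21 of 85, against 13.5% of named genes), the median member difference was 0.143 beside 0.025 over all named genes, and 76 of 85 were above 0. With scaling to the median of the probes that are not members, a choice made after seeing the data, 27 were higher and 1 lower (13.1% of named genes called), and the median was 0.203 beside 0.086. Rpl22l1, Rpl7a, Rpl36al, Rpl39, Rpsa, Rps15a, Rps20, Rpl5 and Rpl11 rose under all 3 scalings. Rps15 was called lower under quantile normalization alone, with -0.24 (limma adjusted p = 0.0591) at the 75th percentile. The lower calls under the other scalings included Rpl3l, which was not well above background in Atm-/- NR. Which of the scalings fits the amount of mRNA per cell was not tested.

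**Figure D3:**
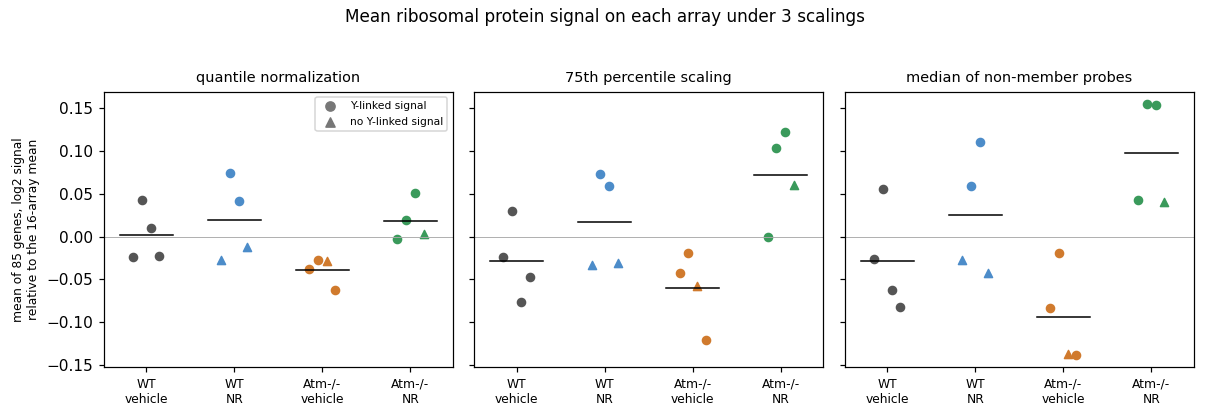
Mean over the 85 ribosomal protein genes of log2 signal relative to each gene's 16-array mean (y axis), for each array by group (x axis), under 3 scalings. Bars are group means and triangles are the 4 arrays without Y-linked signal. The Atm-/- veh arrays lie between -0.063 and -0.027 after quantile normalization and between -0.12 and -0.019 at the 75th percentile, below all Atm-/- NR arrays in each panel.

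NR in WT mice moved no member past the threshold. None of the 85 genes, and 0 of all named genes (0%), was called between WT NR and WT veh by limma. At an unadjusted p under 0.05 there were 7 members, among them Rpl22l1, Rps3a1, Rpl36al, Rpl41, Rpl7a and Rps15 (8.24%, against 8.84% of named genes). The groups did not overlap for 7 members (8.24%, against 4.58%). Wholly above WT veh lay 5, namely Rpl11, Rpl22l1, Rpl36al, Rps15a and Rps3a1, beside 1.71% of named genes. Wholly below lay 2, beside 2.87%. Rpl22l1 was 0.20 higher (SE 0.075, limma adjusted p = 0.576). The median member difference was 0.009, beside -0.006 over all named genes, and turned to -0.001 without WT NR 2. On the 12 arrays with Y-linked signal, which leave 2 WT NR arrays, the median was 0.053 and no member was called.

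The 2 NR comparisons share no arrays, and their values can be set side by side. All 11 members called in Atm-/- mice had a difference of the same sign in WT mice, and in all 11 it was smaller there: 0.20 against 0.38 for Rpl22l1, 0.18 against 0.34 for Rpl7a, 0.07 against 0.28 for Rpl39, 0.06 against 0.25 for Rpl5 and -0.17 against -0.31 for Rps15. The 11 were chosen by their difference in Atm-/- mice, so the order of the sizes is a description. Neither count was made over all called genes, so neither is read as a trait of the members. Row and treatment cannot be told apart in either genotype. The difference between the NR effects was called for 0 members and 0 of all named genes (0%) by limma, and 1 member had an unadjusted p under 0.05 (1.18%, against 5.96% of named genes). This was the dim Rpl3l. The median difference between effects was 0.047 over the members and 0.035 over all named genes, and on the 12 arrays with Y-linked signal 0.0181 and 0.0353. For Rpl39 the difference between effects was 0.22 (95% interval -0.01 to 0.44, limma adjusted p = 0.839) and for Rpl22l1 0.17 (-0.05 to 0.40, limma adjusted p = 0.839). The arrays thus show NR calls in 1 genotype and do not show that the genotypes differ in them.

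**Figure D4:**
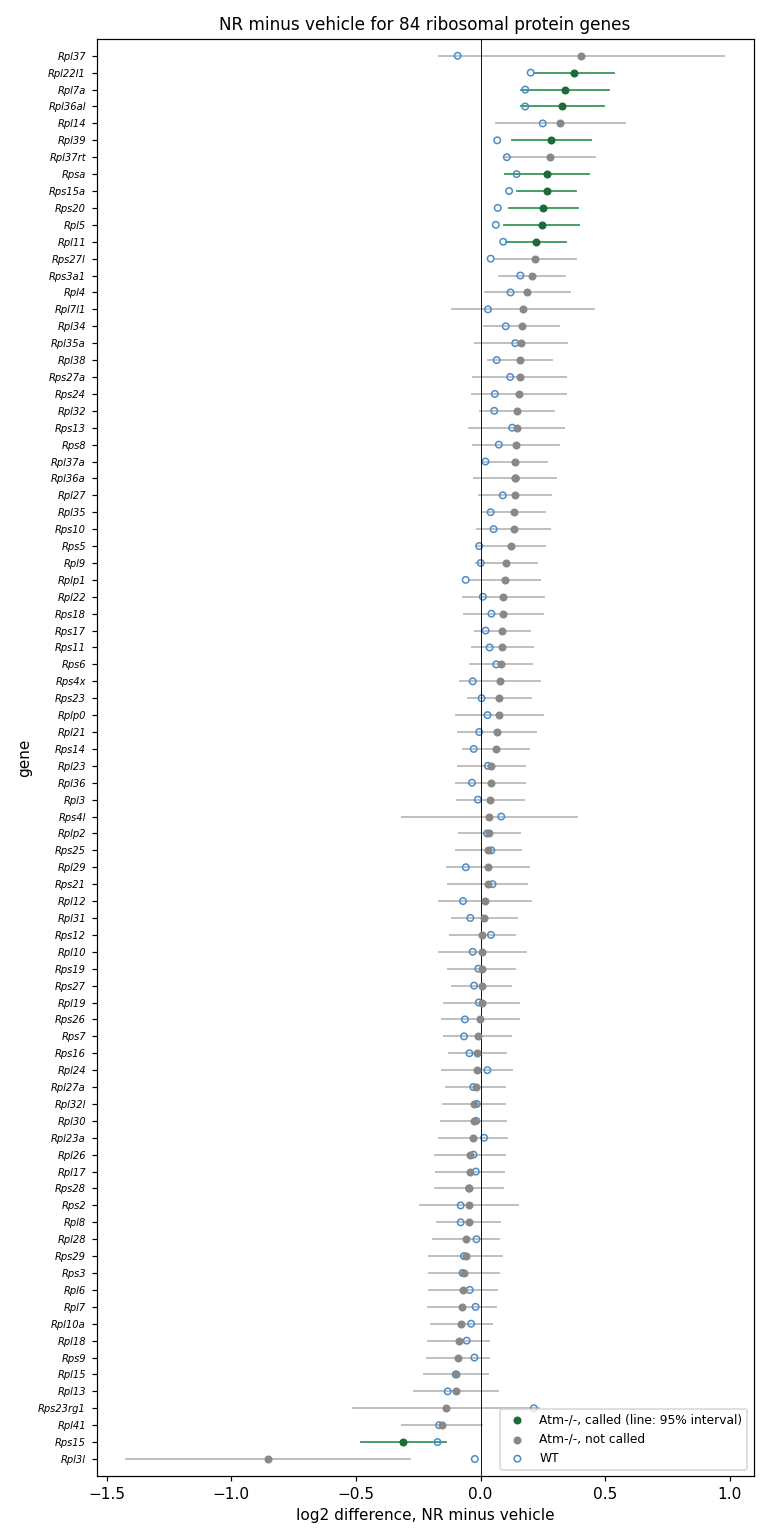
Log2 difference between NR and veh (x axis) for 84 of the 85 ribosomal protein genes (y axis), in Atm-/- mice (filled, with the 95% interval, green where called) and in WT mice (open circles). Most genes lie within 0.2 of 0, and the 10 called genes shown lie on the same side of 0 in both genotypes. Rpl3l at the bottom was not well above background in Atm-/- NR.

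Between the genotypes under NR, no member was called by limma (10 of all named genes, 0.0597%), and 1 had an unadjusted p under 0.05 (1.18%, against 4.34%). The median member difference was 0.004, beside 0.008 over all named genes, and its sign turned under other settings, to -0.031 on the 12 arrays with Y-linked signal and between -0.0105 and 0.0233 with an array left out, and it was 0.068 at the 75th percentile. Groups did not overlap for 5 members (5.88%, against 4.53%). The member with the low p was Rplp1, a stalk protein that helps recruit elongation factors. It read 16.45, 16.52, 16.52 and 16.45 in WT veh and 16.59, 16.59, 16.68 and 16.59 in Atm-/- veh. With NR it read 16.32, 16.59, 16.42 and 16.38 in WT and 16.68, 16.71, 16.75 and 16.69 in Atm-/- mice. The Atm-/- arrays lay above the WT arrays at the same treatment in both pairs. The differences were 0.28 under NR (SE 0.066, limma adjusted p = 0.317) and 0.125 without NR (SE 0.066, limma adjusted p = 0.396), and slide cannot be told apart from genotype here.

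The paralogs and copies of the set (Rpl3l, Rpl7l1, Rpl22l1, Rpl32l, Rpl36al, Rpl37rt, Rps4l, Rps23rg1 and Rps27l) gave 2 of the 11 calls from 9 genes, too few to read a share from. The 45 other large subunit genes gave 4 rises and 1 fall (11.1%), and the 31 other small subunit genes 3 rises and 1 fall (12.9%), both near the 11.5% of all named genes. Rps27l, a p53 target and paralog of Rps27, was 0.22 higher in Atm-/- NR than in Atm-/- veh (SE 0.075, limma adjusted p = 0.0816), with arrays at 13.53, 13.53, 13.42 and 13.45 against 13.65, 13.72, 13.74 and 13.69. These groups do not overlap, and Rps27 differed by 0.00 (95% interval -0.11 to 0.12). Rpl7l1, which acts in making the 60S subunit, differed by 0.17 (limma adjusted p = 0.428) with wider groups.

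**Figure D5:**
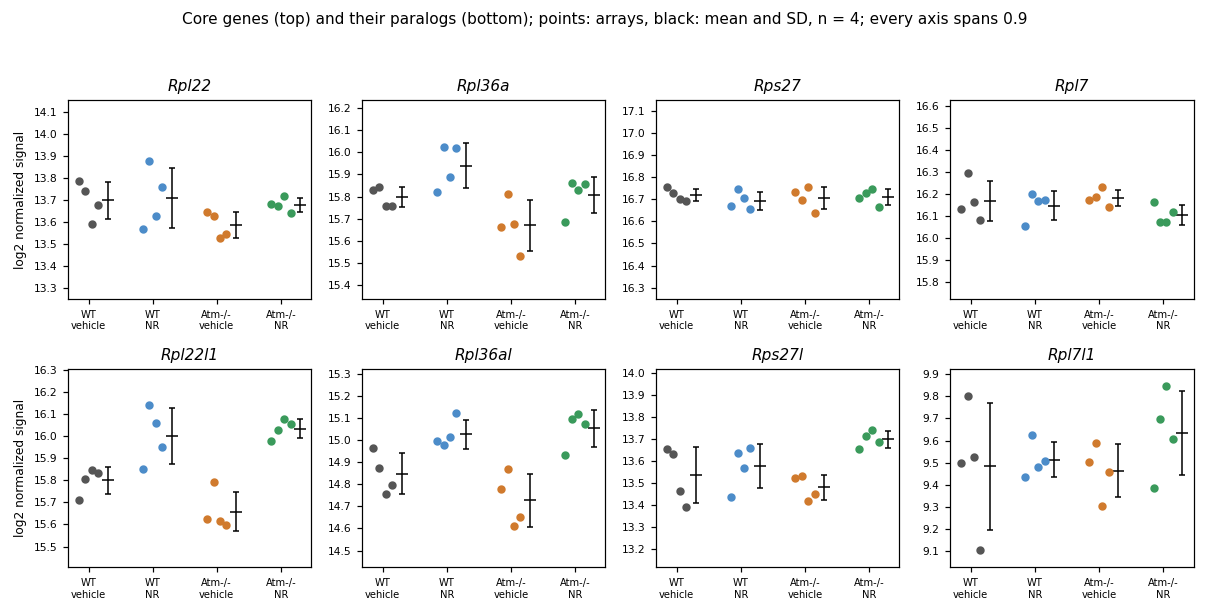
Log2 normalized signal (y axis, spanning 0.9 in each panel) on each array by group (x axis) for 4 core genes (top) and their paralogs (bottom), with the group mean and SD (n = 4). Rpl22l1, Rpl36al and Rps27l are higher on every Atm-/- NR array than on any Atm-/- veh array, while the brightest probes of Rpl22, Rpl36a, Rps27, Rpl7 and Rpl7l1 overlap between these groups.

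Other genes of translation gave counts of the same order between Atm-/- NR and Atm-/- veh. Of 51 translation factors 5 rose and 4 fell, of 18 measured TOP mRNAs that encode no ribosomal protein 2 rose and 0 fell, and of 98 ribosome biogenesis genes 8 rose and 3 fell. Of 78 mitochondrial ribosomal proteins, which build the separate ribosome of mitochondria, 9 rose and 1 fell, with a median of 0.074. No list gave a called gene in the other comparisons or in the difference between the NR effects. Relative to the 16-array mean, the mean of 10 granule cell markers ran from 0.0015 to 0.16 in Atm-/- veh and from -0.16 to 0.0046 in Atm-/- NR, that of 9 microglia markers from -0.23 to 0.53 and from -0.24 to 0.0092, and that of 5 red cell markers from -0.61 to 2.18 and from -0.15 to 0.13. The mean of 7 choroid plexus markers ran from -1.15 to 4.96 in WT veh, from -1.15 to 0.18 in Atm-/- veh and from -1.09 to -0.029 in Atm-/- NR. The 4.96 was WT veh 4 alone, and the rest of WT veh reached 0.62 at most. The mean of 10 endothelial markers ran from -0.15 to 0.54 in Atm-/- veh and from -0.24 to 0.019 in Atm-/- NR, with 7 of 10 lower in Atm-/- NR and a median difference of -0.23. The upper ends of the microglia, red cell and endothelial ranges in Atm-/- veh came from 1 array, Atm-/- veh 3, without Y-linked signal. The rest of that group ran from -0.22 to -0.12, from -0.61 to 0.041 and from -0.15 to 0.0023. The mean of 10 oligodendrocyte markers ran from -0.28 to -0.028 in Atm-/- NR and from 0.043 to 0.61 in WT NR, without overlap, and all 10 had lower means in Atm-/- NR. In Atm-/- veh it ran from -0.15 to -0.0098. The part of these in the ribosomal protein differences was not tested.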

How the data were processed

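The labels give 4 arrays for each of 4 groups. For each array the authors deposited Agilent Feature Extraction 12.0.3.1 output, with spot intensity after background subtraction and no normalization between arrays, and a table of scores per spot (log z-scores after quantile normalization). Other columns (flags) came from the scanner software. Probes were named by accession through RefSeq genes of GRCm38.p6 (32994 of 56605). Array design and table are of different builds, so names only were used. Probes detected (at least 0.5 of their spots well above background) on all 4 arrays of a group were kept. Their log2 signal was quantile normalized, outlier spots were removed and spots averaged (37253 probes). A gene was read by its brightest kept probe. limma 3.58.1 in R 4.3.3 fitted 4 group means over 16 arrays (12 residual degrees of freedom), with Benjamini-Hochberg adjustment over all kept probes. The number of arrays limits the precision, and no spot of a member was saturated (0). Other scalings, background correction, filters, probe rules, array subsets and tests were tried as alternatives. The code was tested on simulated data.

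The members and lists were chosen with earlier results of these data known. Named genes were 25 set by name and, per comparison of 2 groups, the 4 largest called rises and falls, with places filled by the smallest unadjusted p. Some genes are counted but not reported here by name; the other called members are named as well, and genes outside this were chosen after their values were seen. Replicate numbers, which are also array positions, did not pair the arrays: correlations of deviations between same-numbered arrays ran from -0.328 to 0.367.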

Additional observations from a re-analysis of the deposited data

Results flagged for a closer look

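In groups of 4 arrays, 1 array stood apart from the other 3 by Dixon's ratio at the 95% level in 9 of the 144 groups tested for 36 ribosomal protein genes. Chance flags about 5% of groups. On WT veh 1, Rpl13 read 17.09 (nearest array 16.78), Rpl9 16.44 (16.52) and Rps19 16.62 (16.76) on the log2 scale. On WT NR 2, Rpl23a read 15.77 (15.87) and Rps3a1 17.08 (16.99). In the Atm-/- veh group Rpl22l1 read 15.79 on array 2 (15.63), nearest to Atm-/- NR, and Rplp1 16.68 on array 3 (16.59). In Atm-/- NR, Rps4l read 13.31 on array 3 (12.90) and Rps4x 14.97 on array 4 (15.03). No difference between the NR effects of the genotypes was called for a member.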

How the results depend on the processing

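In Atm-/- NR against Atm-/- veh, called members went from 11 (11.5% of all named genes called) to 21 at the 75th percentile (13.5%), 28 with scaling to the median of other probes (13.1%, chosen after seeing the data), 4 with only the arrays compared (9.07%), 0 on the 12 arrays with Y-linked signal (1.51%), and 1 to 13 with an array left out (3.01% to 15.1%). The causes were not tested. With limma's spread as a trend on signal, also chosen after seeing the data, 15 were called, including the 11 (14.6% of named genes). The replicate block gave 12, of them 10 of the 11 (10.7%). The methods' t-test alone, at its unadjusted threshold, called 42 (33.7% of named genes). It called 14 (13.5%) in Atm-/- veh against WT veh and 6 (7.48%) in WT NR against WT veh. In Atm-/- NR against WT NR it called 5 (7.03%). After Benjamini-Hochberg these counts were 16 (12.5%), 0, 0 and 0. The methods also ask for limits on z-ratio, false discovery rate, mean signal and an ANOVA, which these counts leave out, so they are not the calls of the methods. The other comparisons kept 0 called members under all limma settings run, array left out included. The replicate block called 0 members in those.

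Median differences moved at the 75th percentile to 0.143 (Atm-/- NR against Atm-/- veh), 0.0683 (Atm-/- NR against WT NR) and 0.0967 (difference of NR effects). With scaling to other probes they were 0.203, 0.0864 and 0.15, and 0.0433 for WT NR against WT veh. On the 12 arrays they were 0.0788, -0.0307, 0.0181 for the difference of NR effects (0.0466 on all arrays), 0.053 for WT NR against WT veh and -0.05 for Atm-/- veh against WT veh. With an array left out they ran from 0.0399 to 0.0716 for Atm-/- NR against Atm-/- veh, -0.0575 to -0.028 for Atm-/- veh against WT veh, -0.00107 to 0.0221 for WT NR against WT veh, -0.0105 to 0.0233 for Atm-/- NR against WT NR and 0.028 to 0.0615 for the difference of effects.

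Slide as a block was not run, since it is the same as genotype. Differences near the spread of 4 arrays could not be told from 0 here.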
